A study of Mus musculus with 6 samples.

Results

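The genes described here are 10 members of the Notch pathway, chosen by name from the 27998 genes in the deposited tables: the receptors Notch1, Notch2, Notch3 and Notch4, the ligands Jag1, Jag2 and Dll4, and the target genes Hey1, Heyl and Hes1. All 10 had UMIs in the mouse aortic cells analysed, and 9 of them differed between blood endothelial and mural cells, as did 59% of all genes tested. Notch3, Heyl and Notch2 were lower in blood endothelial than in mural cells, Dll4, Notch4, Jag2, Notch1, Hey1 and Hes1 were higher, and Jag1 did not pass. Most mural cells were aortic-type smooth muscle cells. Among the vessel classes, mean Hes1 was highest in the branch-type and pericyte-like mural cells. Between the diets, 0 of the 10 passed the test in any cell class by edgeR or by DESeq2, and 3 of 59 tests had an unadjusted p under 0.05 by edgeR.

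Notch receptors are membrane proteins that are activated by ligands on a neighbouring cell. Binding lets the metalloprotease Adam10 and then the gamma-secretase complex cut the receptor, and the freed intracellular part enters the nucleus, where it joins the DNA-binding protein Rbpj and raises the transcription of repressors of the Hes and Hey families. In vessels, Dll4 and Notch1 are known for restraining sprouting and for arterial identity, and Jag1 and Notch3 are known for the maturation of smooth muscle and pericytes.

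Cells came from aortas of C57B/6J mice aged 18 weeks. The labels give 3 samples of a high-fat diet and 3 of a control diet, which the series' design text calls normal, and name no allele or further treatment. The length and content of the diets are not given in the sources used here. The tissue was digested with collagenase and single cells were profiled on the 10x Genomics droplet platform, which counts the 3′ ends of transcripts as unique molecular identifiers (UMIs). Nothing in the labels says that each sample came from a separate animal, so p-values measure the spread between these samples only.

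The 6 samples held 62838 deposited cell barcodes, of which 58034 were analysed, with 41388034 to 83886418 UMIs per sample and a median of 3856 to 5955 per cell. Pairs of samples shared 26 to 127 barcodes, and 0 of these shared barcodes had the same counts in both. Cells were placed in classes by marker genes, none of which belongs to the Notch pathway. Blood endothelial cells numbered 2396 and mural cells, the smooth muscle cells and pericytes around the endothelium, 11700. Within the endothelium, 426 cells carried arterial markers such as Sox17, Bmx and Gja5, 1479 carried capillary markers such as Rgcc, Gpihbp1 and Car4, 269 carried at least 3 markers of each set, and 434 carried lymphatic markers such as Prox1 and Mmrn1. Arterial-like and capillary-like cells each had fewer than 3 markers of the other set. The mural classes were 10286 aortic-type smooth muscle cells with Sost, Npnt and Itga8, 358 branch-type smooth muscle cells with Sncg, Rgs4 and Pln, and 484 pericyte-like cells with Rgs5, Kcnj8 and Higd1b. A further 137 Vwf-positive endothelial cells, with 8 to 50 in a sample and fewer than 3 markers of the arterial and of the capillary set, are given as levels only. So are 572 smooth muscle cells with neither smooth muscle marker set. UMIs were summed per sample and class, and a level is given as CPM, the gene's count scaled to a common total of that sum. Values of 3 samples are listed from replicate 1 to replicate 3. Levels were compared between classes and diets for 1 gene at a time, since a 3′ count is not scaled by gene length.

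Pieces of 250 bases upstream of a RefSeq transcription start are shown for 3 of the members whose levels separated endothelial from mural cells, as a view of the sequence beside the contrast. They are RefSeq sequence of GRCm38.p6, 5′ to 3′ on the gene's strand. Capitals mark GGAA or its reverse complement TTCC, the core bound by ETS factors, which are abundant in endothelial cells. The Notch4 piece is chr17:34564045-34564294 on the plus strand, the Dll4 piece chr2:119325534-119325783 on the plus strand and the Notch3 piece chr17:32166891-32167140 on the minus strand.
Notch4: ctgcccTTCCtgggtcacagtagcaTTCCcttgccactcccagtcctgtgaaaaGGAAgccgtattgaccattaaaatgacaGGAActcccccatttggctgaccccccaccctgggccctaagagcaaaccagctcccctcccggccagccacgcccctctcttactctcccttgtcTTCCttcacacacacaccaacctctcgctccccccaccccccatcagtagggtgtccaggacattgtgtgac
Dll4: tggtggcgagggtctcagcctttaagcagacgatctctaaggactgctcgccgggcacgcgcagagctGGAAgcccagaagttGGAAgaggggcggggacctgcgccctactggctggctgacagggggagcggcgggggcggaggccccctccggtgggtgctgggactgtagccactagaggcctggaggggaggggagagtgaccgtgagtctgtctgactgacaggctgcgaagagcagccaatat
Notch3: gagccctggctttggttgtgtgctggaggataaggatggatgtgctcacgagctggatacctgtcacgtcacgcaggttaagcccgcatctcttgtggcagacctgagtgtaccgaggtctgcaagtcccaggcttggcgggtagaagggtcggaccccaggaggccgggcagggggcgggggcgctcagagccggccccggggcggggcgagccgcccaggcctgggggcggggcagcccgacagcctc
The core occurred 5 times in the Notch4 piece, 2 times in the Dll4 piece and 0 times in the Notch3 piece. Among the members not shown, it occurred 4 times in the piece of Notch1 and 0 times in that of Jag2, both higher in blood endothelial cells. It occurred 3 times in that of Notch2, which was lower there, and 3 times in that of Jag1, which did not pass. A link between the core and the levels was not tested. Such a short core is common, since 93.4% of 32851 RefSeq promoters of the same length held at least 1, with a median of 3, and 18.0% held 5 or more. The motif TGGGAA of Rbpj, searched on both strands and overlapping GGAA, had 0 matches in the 7 promoters found, against 21.6% of all promoters. The CArG box of serum response factor, also searched on both strands, likewise had 0 matches in the 7, against 1.47% of all promoters. The GC content was 58.4% for Notch4, 65.6% for Dll4 and 68.8% for Notch3, and the median over all promoters was 52.4%. RefSeq promoters were matched for 7 of the 10 members, and Hes1, Hey1 and Heyl are named only.

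Blood endothelial cells and mural cells were compared within samples first. All 10 members passed the filter on low counts. Of these, 6 were higher in blood endothelial cells and 3 were lower, in a comparison in which 28.1% of 12366 genes tested were higher and 30.9% lower, 59% in all (edgeR quasi-likelihood test, sample as a block, adjusted p under 0.05). The ligand Dll4 averaged 63.3 ± 12.6 CPM in blood endothelial cells and 0.706 ± 0.399 CPM in mural cells (SD, n = 6 each), a log2 difference of 6.38 (SE 0.23, adjusted p = 1.02e-09 by edgeR with Benjamini-Hochberg adjustment). Notch4, a receptor known for its restriction to endothelium, averaged 60.2 ± 13.9 CPM in blood endothelial cells and 1.78 ± 0.492 CPM in mural cells, a log2 difference of 4.95 (SE 0.15). Jag2, a ligand of the same Jagged type as Jag1, averaged 14.1 ± 2.57 CPM in blood endothelial cells and 0.573 ± 0.211 CPM in mural cells, a log2 difference of 4.47 (SE 0.26). For these 3 genes, every sample was higher in blood endothelial cells and the ranges did not overlap.

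Notch1 and Hey1 were also higher in blood endothelial cells, by 3.52 (SE 0.13) and 3.20 (SE 0.13) on the log2 scale, and Hes1 by 1.27 (SE 0.21). For Hes1 the ranges overlapped, and 10286 of the 11700 mural cells were aortic-type. Hes1 averaged 205 CPM in blood endothelial cells, below the 356 CPM of branch-type and 343 CPM of pericyte-like cells. The 3 members that were lower were the receptor Notch3 at −3.98 (SE 0.28), its target Heyl at −3.79 (SE 0.20) and the widely used receptor Notch2 at −1.76 (SE 0.26). Jag1 was the 1 member that did not pass, with 42.7 ± 11.7 CPM in blood endothelial cells and 44.3 ± 11.1 CPM in mural cells (SD, n = 6 each) and a log2 difference of −0.19 (SE 0.19, adjusted p = 0.406 by edgeR). Its mural mean pools 141 CPM in branch-type, 98.8 CPM in pericyte-like and 38.8 CPM in the more numerous aortic-type cells. The median log2 difference was 2.23 over the members and −0.01 over all genes tested. The members were chosen by name with earlier results of these data known, so these medians are a description and no test of a set.

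**Figure D1:**
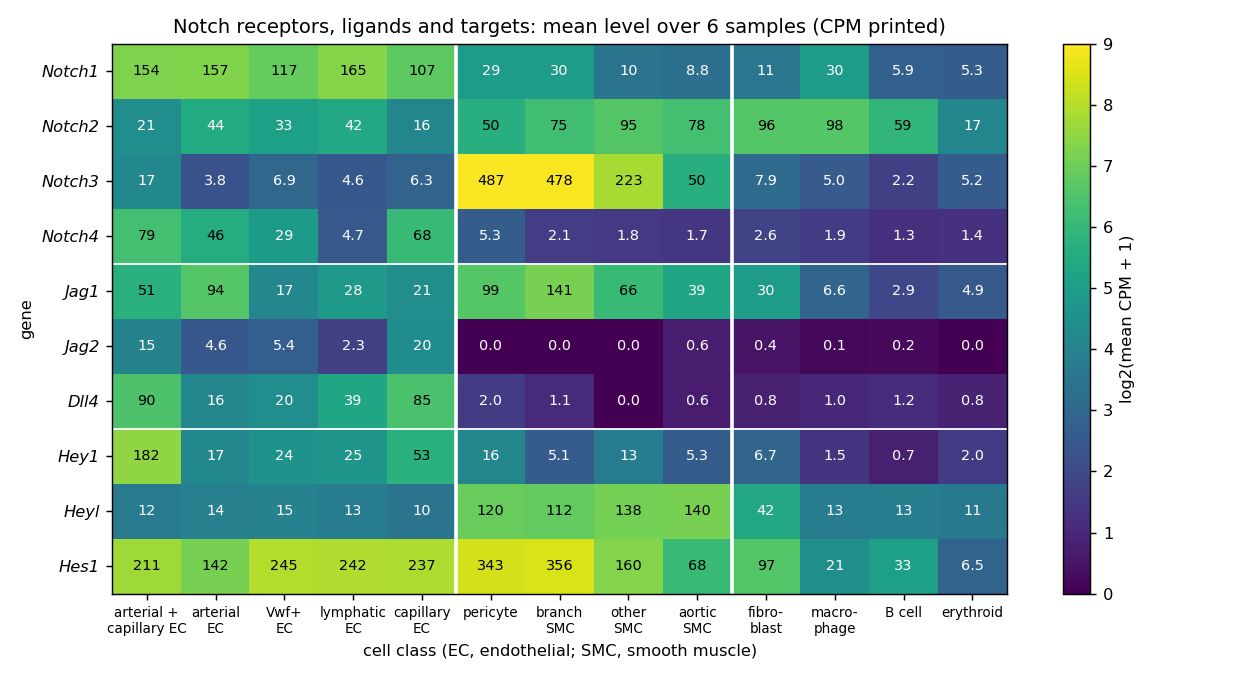
Mean level of each of the 10 members over 6 samples in each vessel class, with genes down and cell classes across, coloured by log2 of the mean CPM plus 1 and with the mean CPM printed in each field. Notch3 reaches 487 CPM in pericyte-like cells and Hey1 reaches 182 CPM in cells with arterial and capillary markers.

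Among the receptors, Notch1 was measured in every endothelial class. In arterial-like cells its level was 169, 157 and 151 CPM in the high-fat diet samples and 117, 151 and 198 CPM in the control samples, from 352 UMIs in all. In capillary-like cells it was 137, 86.6 and 110.3 CPM in high-fat diet samples and 78.8, 109 and 122 CPM in control samples. Arterial-like cells were higher in 6 of 6 samples, although the ranges overlapped, by 0.55 on the log2 scale (SE 0.13, adjusted p = 0.00109 by edgeR with Benjamini-Hochberg adjustment). Lymphatic-like cells, at 141, 122 and 210.4 CPM under the high-fat diet and 136, 176 and 205 CPM under control diet, were also higher than capillary-like cells in 6 of 6 samples, by 0.58 (adjusted p = 0.000177, edgeR). The mean over 6 samples was 165 CPM in lymphatic-like, 157 CPM in arterial-like, 154 CPM in the cells with both marker sets and 107 CPM in capillary-like cells, and neighbours in this order overlapped.

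Notch1 was present at a lower level in mural cells. Branch-type smooth muscle cells averaged 30.3 CPM and pericyte-like cells 29.5 CPM, whereas aortic-type cells ranged from 5.46 to 10.5 CPM over the 6 samples, with no overlap. The log2 difference from aortic-type cells was 1.78 for branch-type cells (SE 0.27, adjusted p = 2.52e-08, edgeR) and 1.55 for pericyte-like cells (adjusted p = 1.99e-05, edgeR). B cell-like cells, a class outside the vessel wall lineages, averaged 5.94 CPM.

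Notch4 was low in lymphatic-like cells and in every mural class. Lymphatic-like cells had 2.28, 15.2 and 4.09 CPM under the high-fat diet and 3.64, 0 and 2.82 CPM under control diet, from 15 UMIs. Capillary-like cells had 103, 67.1 and 60.1 CPM in high-fat diet samples and 51.7, 63.7 and 62.8 CPM in control samples, from 386 UMIs. Every lymphatic-like value lay below every capillary-like value, and the log2 difference was −3.86 (SE 0.32, adjusted p = 8.4e-10, edgeR with Benjamini-Hochberg adjustment). Arterial-like cells averaged 46.3 CPM, and their log2 difference of −0.58 from capillary-like cells did not pass (SE 0.27, adjusted p = 0.113, edgeR). It passed without control 3, at −0.79 with an adjusted p of 0.0194 by edgeR.

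Notch2, the receptor with the broadest distribution here, averaged 77.6 CPM in aortic-type and 74.6 CPM in branch-type smooth muscle cells and 49.8 CPM in pericyte-like cells. It also averaged 96.2 CPM in fibroblast-like and 98.2 CPM in macrophage-like cells. Among endothelial classes it averaged 44.0 CPM in arterial-like, 42.3 CPM in lymphatic-like and 16.3 CPM in capillary-like cells. Arterial-like cells had 41.6, 32.1 and 46.8 CPM under the high-fat diet and 51.0, 59.5 and 33.0 CPM under control diet. Capillary-like cells had 10.2, 15.9 and 21.9 CPM under the high-fat diet and 29.5, 13.6 and 6.89 CPM under control diet. The ranges did not overlap, and the log2 difference of arterial-like from capillary-like cells was 1.46 (SE 0.24, adjusted p = 2.43e-05, edgeR).

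**Figure D2:**
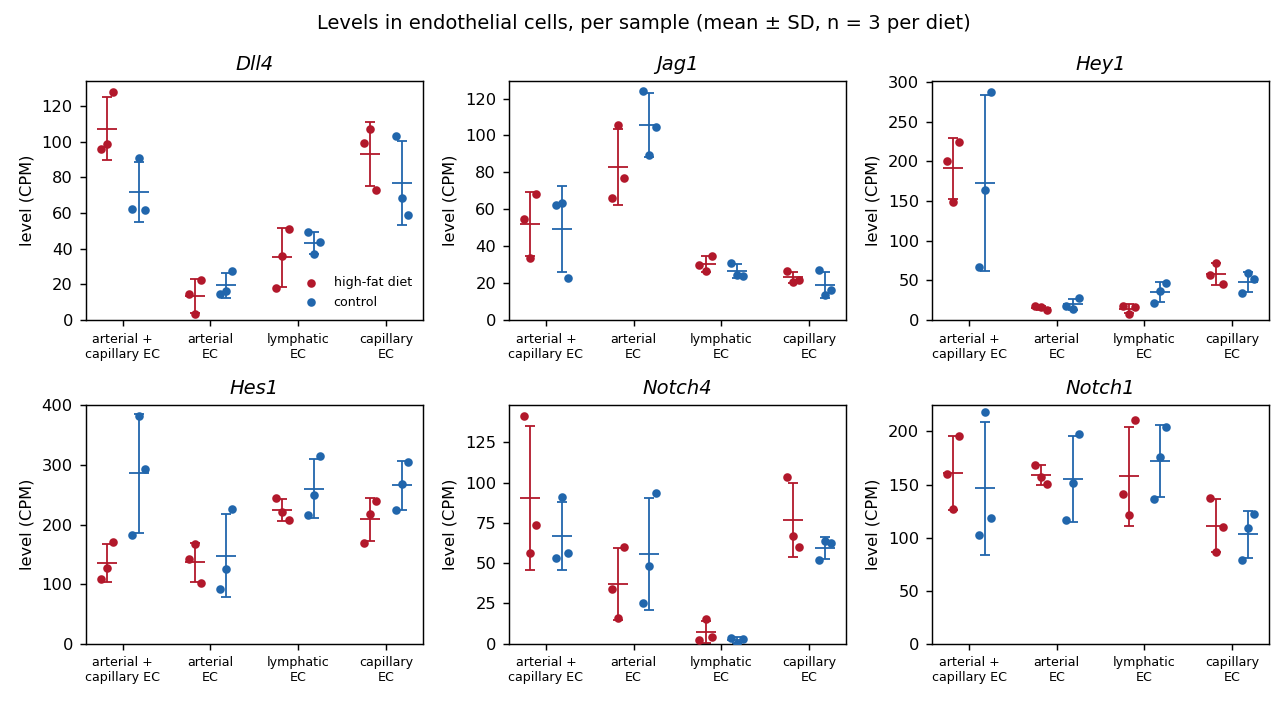
Level in CPM of 6 members in 4 endothelial classes, each point 1 sample, with the horizontal line at the mean and the bar at 1 SD (n = 3), and with high-fat diet samples left of control samples. Jag1 is higher in arterial-like than in capillary-like cells, and Dll4 and Hey1 are lower. Neither of these classes holds the cells with both marker sets.

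Notch3, known from human CADASIL as a receptor of small-vessel mural cells, had the largest log2 differences from aortic-type cells of the members tested in branch-type and in pericyte-like cells. In pericyte-like cells its level was 467, 397 and 542 CPM in the high-fat diet samples and 375, 577 and 565 CPM in the control samples, from 1107 UMIs. In branch-type smooth muscle cells it was 324, 429 and 556 CPM in high-fat diet samples and 505, 644 and 409.8 CPM in control samples, from 863 UMIs. In aortic-type smooth muscle cells it was 40.6, 25.0 and 77.4 CPM in high-fat diet samples and 37.8, 37.7 and 80.1 CPM in control samples. Every pericyte-like and every branch-type value lay above every aortic-type value. The log2 difference from aortic-type cells was 3.22 in pericyte-like cells (SE 0.17, adjusted p = 3.61e-10, edgeR with Benjamini-Hochberg adjustment) and 3.32 in branch-type cells (SE 0.30, adjusted p = 0.000694, edgeR). Pericyte-like and branch-type cells did not differ beyond the spread of the samples, with a log2 difference of −0.03 (SE 0.11, adjusted p = 0.889, edgeR). The gate could place a cell with markers of both types among the pericyte-like cells. Smooth muscle cells with neither marker set lay between, with a mean of 223 CPM.

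In single cells thinned to 1000 UMIs each, pericyte-like and branch-type cells were again above aortic-type cells. The gap between the shares of pericyte-like and branch-type cells was not tested. After thinning, Notch3 was detected in 38.8% of pericyte-like cells, 30.4% of branch-type cells and 4.41% of aortic-type cells, against 0.441% of B cell-like cells, which should lack it. Without thinning the shares were 79.5%, 76.3% and 20.6% in the same order of mural classes. The median depth was 3844 to 4252 UMIs per cell in pericyte-like cells, 3697 to 5674 in branch-type, 5869 to 8165 in aortic-type and 2225 to 4993 in B cell-like cells. By diet, 31.9% ± 8.64 of pericyte-like cells had a thinned Notch3 UMI under the high-fat diet and 43.3% ± 8.26 under control diet (SD, n = 3 each, two-sided exact permutation p = 0.2, where 0.1 is the smallest this design allows).

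Markers of pericytes moved with Notch3 among the aortic-type samples. The sum of the 7 pericyte markers in aortic-type cells was 1351, 568 and 1456 CPM in high-fat diet samples and 597, 614 and 3808 CPM in control samples, against 4310 to 8559 CPM in pericyte-like cells. Control 3, with the highest sum, also had the highest Notch3 level in aortic-type cells, and the part of pericyte RNA in these levels was not tested. Gm17276, an antisense transcript over Notch3, had at most 2 UMIs in any sample of the mural classes. Whether reads were counted by strand is not given in the sources used here, so the split between both genes is uncertain. In the endothelial classes Notch3 lay between 0 and 54.6 CPM, and B cell-like cells averaged 2.24 CPM.

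**Figure D3:**
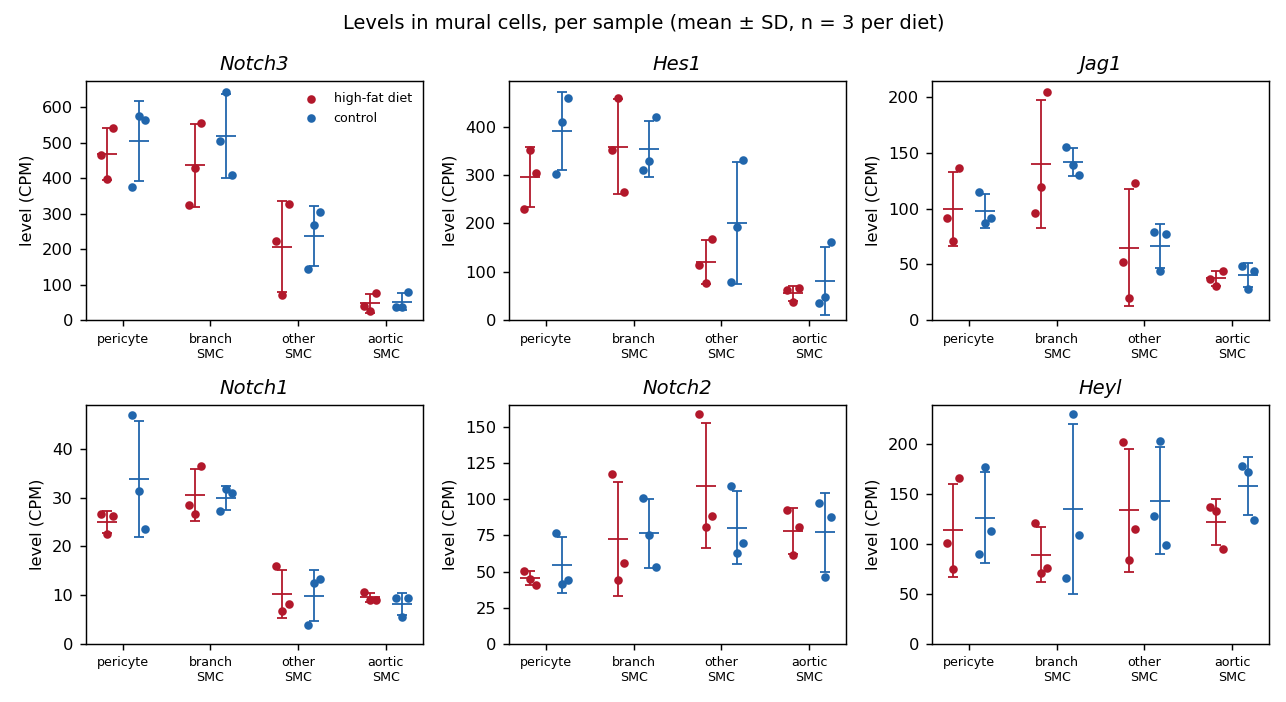
Level in CPM of 6 members in 4 mural classes, each point 1 sample, with the horizontal line at the mean and the bar at 1 SD (n = 3), and with high-fat diet samples left of control samples. Notch3, Jag1, Notch1 and Hes1 are higher in branch-type and pericyte-like cells than in aortic-type cells, whereas Heyl overlaps between the classes.

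Among the ligands, Dll4 and Jag1 were arranged in opposite ways between arterial-like and capillary-like cells. Both classes leave out the cells with both marker sets, which averaged 89.5 CPM of Dll4. Differences with those cells put back were not tested. Dll4 had 14.7, 3.21 and 22.6 CPM in arterial-like cells under the high-fat diet and 14.6, 16.0 and 27.5 CPM under control diet, from 38 UMIs. In capillary-like cells it had 99.2, 107 and 72.8 CPM under the high-fat diet and 103, 68.2 and 59.0 CPM under control diet, from 452 UMIs. Every arterial-like value lay below every capillary-like value, and the log2 difference was −2.31 (SE 0.26, adjusted p = 1.31e-07, edgeR with Benjamini-Hochberg adjustment). Lymphatic-like cells averaged 39.2 CPM and were lower than capillary-like cells by −1.10 on the log2 scale (adjusted p = 5.85e-05, edgeR).

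Jag1 had 66.1, 106 and 76.9 CPM in arterial-like cells under the high-fat diet and 124, 89.3 and 105 CPM under control diet. In capillary-like cells it had 26.6, 20.7 and 21.9 CPM under the high-fat diet and 27.1, 13.6 and 16.1 CPM under control diet. The ranges did not overlap, and arterial-like cells were higher by 2.11 on the log2 scale (SE 0.20, adjusted p = 2.31e-09, edgeR). Of the 7 members tested between arterial-like and capillary-like cells, 3 were higher (Jag1, Notch2 and Notch1) and 3 lower (Dll4, Hey1 and Hes1), where 18.4% of 6469 genes were higher and 16.7% lower, 35.1% in all. Notch3, Jag2 and Heyl did not reach the count filter in that comparison.

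Jag1 was also higher in branch-type and pericyte-like cells than in aortic-type cells. Branch-type cells had 96.0, 119 and 205 CPM in high-fat diet samples and 155, 139 and 131 CPM in control samples. Aortic-type cells had 37.1, 30.8 and 44.1 CPM in high-fat diet samples and 48.7, 28.1 and 43.9 CPM in control samples. The ranges did not overlap, and the log2 difference was 1.85 (SE 0.14, adjusted p = 8.77e-24, edgeR). Pericyte-like cells, with a mean of 98.8 CPM, were higher than aortic-type cells by 1.20 (adjusted p = 5.06e-08, edgeR) and lower than branch-type cells by −0.59 (SE 0.15, adjusted p = 0.00317, edgeR). The last difference did not pass with a limit of 10% mitochondrial UMIs per cell, where its adjusted p was 0.131 by edgeR.

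Jag2 UMIs were few. Capillary-like cells had 29.6, 19.5 and 12.7 CPM under the high-fat diet and 24.6, 18.2 and 15.3 CPM under control diet, from 105 UMIs. Arterial-like cells held 11 UMIs and lymphatic-like cells 7, and every value in either class lay below every capillary-like value. Pericyte-like cells held 0 Jag2 UMIs, which allows a level of up to 1.36 CPM, and branch-type cells held 0, which allows up to 1.65 CPM. Jag2 did not reach the filter in any comparison of levels between 2 endothelial or 2 mural subtypes.

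Among the targets, Hey1, a repressor known for arterial and endothelial Notch responses, peaked in cells with both arterial and capillary markers. These cells were made a class of their own after the data were seen. Hey1 had 201, 149 and 224 CPM there in high-fat diet samples and 66.7, 164 and 287 CPM in control samples, from 260 UMIs. Arterial-like cells had 17.1, 16.0 and 12.1 CPM in high-fat diet samples and 18.2, 13.7 and 27.5 CPM in control samples, and capillary-like cells averaged 53.2 CPM. Cells with both marker sets were above arterial-like cells in 6 of 6 samples without overlap, by 3.42 on the log2 scale (SE 0.24, adjusted p = 1.05e-11, edgeR with Benjamini-Hochberg adjustment). They were above capillary-like cells in 6 of 6 samples, by 1.78 (SE 0.17, adjusted p = 1.24e-09, edgeR). Arterial-like cells, from which the cells with both marker sets had been taken out, were below capillary-like cells, with a log2 difference of −1.70 (SE 0.23, adjusted p = 1.5e-06, edgeR). Per sample, the cells taken out held 15 to 79 Hey1 UMIs and the arterial-like cells left held 5 to 8. This difference therefore depends on that split, and it does not show that arterial cells as a whole have less Hey1. Arterial cells with the split undone were not tested.

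Against capillary-like cells, the cells with both marker sets were higher in 3 of 6 members tested and lower in 0, where 2.55% of 5146 genes were higher and 1.98% lower, 4.53% in all. The other 2 were Jag1 at 1.19 (SE 0.25, adjusted p = 0.00108, edgeR) and Notch1 at 0.48 (SE 0.14, adjusted p = 0.0269, edgeR). The call of Jag1 was lost without high-fat diet 3, at 1.04 with an adjusted p of 0.0532 by edgeR, and that of Notch1 was lost in 6 of the alternatives tried, with an adjusted p of up to 0.506. Against arterial-like cells, 3 of 6 members were higher and 1 lower, where 15.6% of 4352 genes were higher and 16.3% lower, 31.9% in all. Dll4 was higher by 2.49 (SE 0.28, adjusted p = 7.86e-08, edgeR), with 95.7, 98.6 and 128 CPM under the high-fat diet and 62.3, 90.9 and 62.0 CPM under control diet in cells with both marker sets. Notch4 was higher by 0.81 (SE 0.29, adjusted p = 0.0421, edgeR), a call lost in 6 of the alternatives with an adjusted p of up to 0.244. Jag1 was lower by −0.88 (SE 0.24, adjusted p = 0.00537, edgeR). Hes1 passed in neither comparison, but without control 2 it was −0.48 against capillary-like cells (adjusted p = 0.00817, edgeR) and without high-fat diet 2 it was 0.65 against arterial-like cells (adjusted p = 0.0317, edgeR). In both comparisons Notch2, Notch3, Jag2 and Heyl were not tested, with 31, 19, 26 and 17 UMIs in the cells with both marker sets.

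Hes1, a target used by many cell types, had 352, 460.2 and 264 CPM in branch-type cells of high-fat diet samples and 311, 329.7 and 421 CPM in those of control samples. Aortic-type cells had 63.1, 36.8 and 65.7 CPM in high-fat diet samples and 35.3, 46.9 and 162 CPM in control samples. Branch-type cells were higher in 6 of 6 samples without overlap, by 2.52 on the log2 scale (SE 0.34, adjusted p = 0.00416, edgeR). Pericyte-like cells, with a mean of 343 CPM, were higher than aortic-type cells by 2.33 (SE 0.31, adjusted p = 0.00226, edgeR). The control 3 sample, whose aortic-type cells held the highest pericyte marker sum, also had their highest Hes1 level. It was the highest sample for Hes1 in other classes too, with 181 CPM in fibroblast-like, 305 CPM in capillary-like and 315 CPM in lymphatic-like cells. In branch-type cells and in cells with both marker sets another sample was highest. In the endothelium, arterial-like cells averaged 142 CPM and capillary-like cells 237 CPM, with arterial-like cells lower in 6 of 6 samples and a log2 difference of −0.76 (SE 0.14, adjusted p = 0.000146, edgeR).

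Heyl, a target known from smooth muscle, was not higher in the mural classes with high Notch3. Aortic-type cells had 137, 133 and 95.3 CPM in high-fat diet samples and 178, 172 and 124 CPM in control samples, from 10398 UMIs. Branch-type cells had 121, 70.8 and 75.8 CPM in high-fat diet samples and 66.1, 230.4 and 109 CPM in control samples, and overlapped with them. The log2 difference of branch-type from aortic-type cells was −0.35 (SE 0.16, adjusted p = 0.132, edgeR) and that of pericyte-like cells was −0.32 (adjusted p = 0.291, edgeR). Without control 2, which had the highest branch-type value, the difference of branch-type cells was −0.54 with an adjusted p of 0.00186 by edgeR, and without control 3 it was −0.40 with an adjusted p of 0.0320. Without high-fat diet 3, that of pericyte-like cells was −0.57 with an adjusted p of 0.00417 by edgeR. With all samples, branch-type cells passed at a limit of 10% mitochondrial UMIs (−0.46, adjusted p = 0.0478, edgeR). Without the filter on low counts, branch-type cells passed at −0.40 (adjusted p = 0.0164, edgeR) and pericyte-like cells at −0.42 (adjusted p = 0.00967, edgeR). Fibroblast-like cells averaged 42.5 CPM of Heyl and ranged from 20.8 to 70.3 CPM over the 6 samples. Endothelial classes had 0 to 40.1 CPM of Heyl and B cell-like cells 0 to 34.0 CPM. Both upper ends were control 1, that of B cell-like cells being 4 UMIs from 29 cells. B cell-like cells of control 2, control 3 and high-fat diet 1, with 2472, 2294 and 446 cells, had 6.81, 4.56 and 13.8 CPM. Control 1 was the highest sample for Heyl in arterial-like, capillary-like and lymphatic-like cells and in those with both marker sets. It had 0 UMIs in its 8 Vwf-positive cells.

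In counts, 4 of 7 members tested were higher in branch-type than in aortic-type cells (Notch3, Hes1, Jag1 and Notch1) and 0 lower, where 8.03% of 11592 genes were higher and 10.5% lower, 18.5% in all. Hey1 at 0.09, Notch2 at −0.11 and Heyl did not pass, and Notch4, Jag2 and Dll4 were not tested. The median log2 difference was 1.78 over the 7 members and −0.05 over all genes tested, a description of chosen genes with enough counts and no test of a set. In pericyte-like against aortic-type cells 5 of 8 were higher and 1 lower, where 12.3% of 11790 genes were higher and 15.2% lower, 27.5% in all. There Hey1 was higher by 1.45 (SE 0.34, adjusted p = 0.00111, edgeR) and Notch2 lower by −0.84 (adjusted p = 0.000118, edgeR). Heyl and Notch4 did not pass, Notch4 having 11 UMIs in pericyte-like cells and passing without high-fat diet 1 at 1.66 (adjusted p = 0.0401, edgeR), and Jag2 and Dll4 were not tested. In pericyte-like against branch-type cells 2 of 5 were lower and 0 higher, where 17.1% of 3944 genes were higher and 16.8% lower, 33.8% in all. These were Jag1 and Notch2, and the call of Notch2 at −0.64 (SE 0.20, adjusted p = 0.0156, edgeR) was lost without high-fat diet 1, where the adjusted p was 0.0865. It was also lost at a limit of 10% mitochondrial UMIs, at −0.52 with an adjusted p of 0.130 by edgeR, and with DESeq2, where the adjusted p was 0.145. The other 5 members were not tested there. In lymphatic-like against capillary-like cells 2 of 7 were higher (Notch2 and Notch1) and 3 lower (Notch4, Dll4 and Hey1), where 20.1% of 6941 genes were higher and 19.6% lower, 39.7% in all, with Notch3, Jag2 and Heyl not tested.

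Other genes of the pathway, a list of 47 ligands, proteases, glycosyltransferases, nuclear partners, turnover factors and targets, were read beside the members. Hey2, a close relative of Hey1, was arranged against it between arterial-like and capillary-like cells as gated here. It had 61.2, 96.3 and 113 CPM in arterial-like cells under the high-fat diet and 76.5, 124 and 93.5 CPM under control diet, and 0 to 17.8 CPM in capillary-like cells and those with both marker sets. Arterial-like cells were above capillary-like cells in 6 of 6 samples without overlap, by 4.68 on the log2 scale (SE 0.33, adjusted p = 4.47e-10, edgeR with Benjamini-Hochberg adjustment). Hey1 in the same pair of classes had a log2 difference of −1.70. Neither class holds the cells with both marker sets, in which Hey1 peaked.

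The ligand Dll1 had a mean of 73.2 CPM in arterial-like and 13.7 CPM in capillary-like cells, with 28.4 CPM in lymphatic-like and 80.8 CPM in the few Vwf-positive cells, and arterial-like cells were above capillary-like cells by a log2 difference of 2.35 (adjusted p = 4.71e-09, edgeR). Aph1b, a subunit of gamma-secretase, was higher in arterial-like cells by 3.16 (adjusted p = 4.17e-11, edgeR). In all, 10 of 30 list genes tested were higher and 3 lower between these classes, beside 18.4% higher and 16.7% lower over all genes. In lymphatic-like against capillary-like cells 8 of 30 were higher and 4 lower, a share near the 39.7% of all genes that passed in either direction. Dtx1, a deltex-type regulator of receptor turnover, averaged 224 CPM in lymphatic-like and 2.50 CPM in capillary-like cells, a log2 difference of 6.25 (adjusted p = 3.08e-19, edgeR). The fringe glycosyltransferase Mfng was lower by −3.85 and Nrarp, a target that feeds back on the pathway, by −2.83. The presenilin Psen2 was higher by 2.69 (adjusted p = 3.35e-13, edgeR).

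Within the mural cells, Nrarp was higher in branch-type than in aortic-type cells by 5.22 (adjusted p = 1.22e-34, edgeR), as 1 of 6 list genes that were higher among 39, with 2 lower, a share near the 18.5% of all genes that passed. The ubiquitin ligase Neurl1b, which acts on ligands, was higher by 3.59 (adjusted p = 1.98e-17, edgeR), and the coactivator Maml3 by 1.60 (adjusted p = 0.000315, edgeR). Rbpj was lower by −0.67 and Maml2 by −0.82. In pericyte-like against aortic-type cells 8 of 39 were higher and 3 lower, a share near the 27.5% of all genes. Dlk1, a ligand-like protein, had a log2 difference of 5.91 (adjusted p = 3.46e-14, edgeR), with Dtx4 at 3.44 (adjusted p = 4.07e-11, edgeR). Dlk1 varied widely between samples of pericyte-like cells, with 11.8, 63.7 and 16.0 CPM under the high-fat diet and 128, 156 and 49.7 CPM under control diet. In pericyte-like against branch-type cells 2 of 14 were higher and 2 lower, beside 33.8% of all genes in either direction, Hey2 at −1.30 and Nrarp at −1.09 being lower. Between blood endothelial and mural cells 17 of 42 were higher and 9 lower, a share near the 59% of all genes. Those with the smallest adjusted p included Mfng at 5.35 (adjusted p = 1.74e-10, edgeR) and Adam10 at 2.09 (adjusted p = 1.24e-09, edgeR). In cells with both marker sets 0 of 24 list genes passed against capillary-like cells, beside 4.53% of all genes. Against arterial-like cells 1 of 25 was higher and 7 lower, beside 31.9% of all genes in either direction, Hey2 at −3.74 and Aph1b at −2.75 among the lower.

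**Figure D4:**
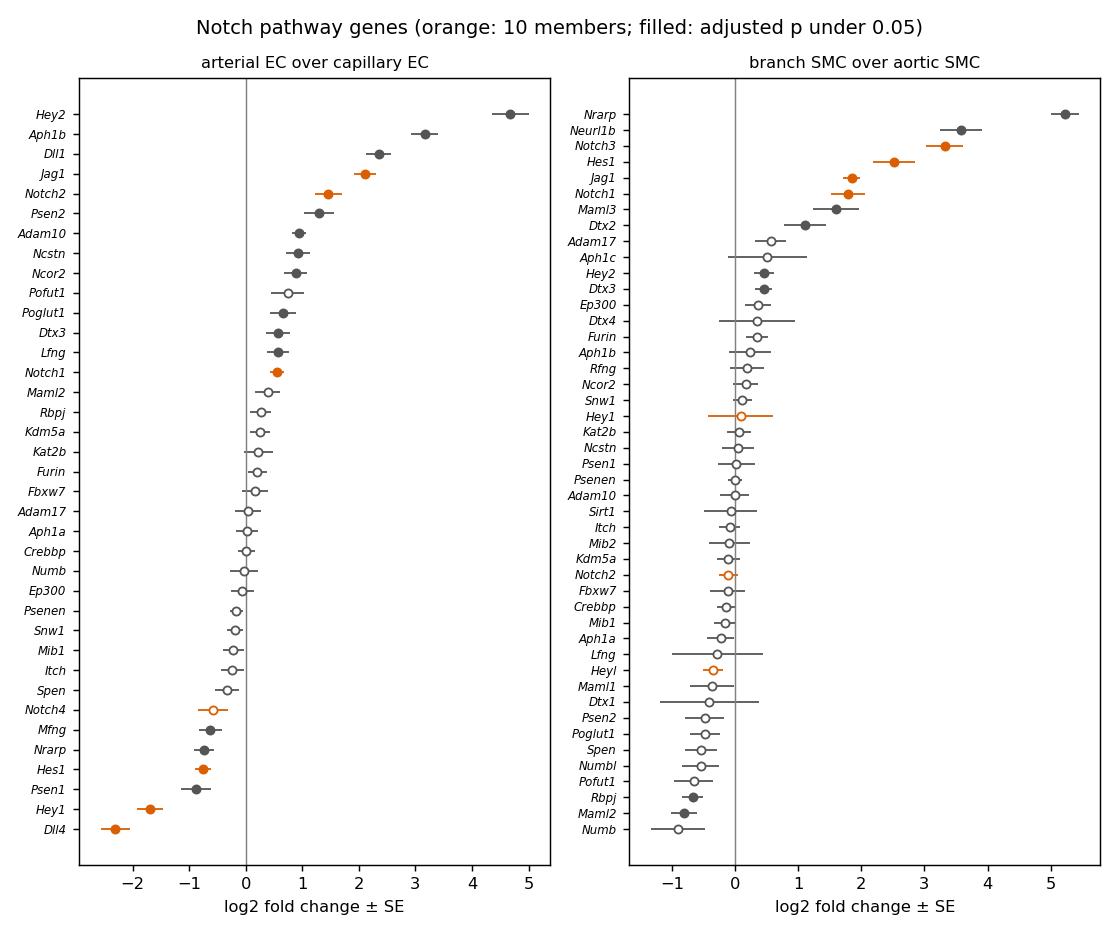
Log2 difference (edgeR fit, bars 1 SE) of every tested pathway gene between arterial-like and capillary-like cells and between branch-type and aortic-type cells, first class over second, with members in orange and filled points where the adjusted p was under 0.05. Hey2 and Hey1 lie on opposite sides of 0 in the first panel, at 4.68 and −1.70, where the cells with both marker sets are left out.

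The diets were compared within each class. Over the 9 classes with enough cells, 59 tests of members were made and 0 passed (edgeR quasi-likelihood test with Benjamini-Hochberg adjustment). The background was 0.0795% of genes in arterial-like cells, 0.296% in capillary-like, 0.162% in cells with both marker sets, 0.309% in lymphatic-like, 0% in aortic-type, 0.488% in branch-type, 0.133% in pericyte-like, 0.0289% in fibroblast-like and 0% in macrophage-like cells. In aortic-type cells 0 of 13177 genes passed by edgeR, with 1263 at an unadjusted p under 0.05 and 109 called by DESeq2. In macrophage-like cells 0 of 10761 passed by edgeR, with 867 at an unadjusted p under 0.05 and 31 called by DESeq2. The members' log2 differences, high-fat diet over control, ran from −1.43 to 0.97, and 57 of 59 lay within 1 of 0. Of the 59, 3 had an unadjusted p under 0.05, and the lowest adjusted p was 0.161 by edgeR. The members tested numbered 5 in arterial-like, 8 in capillary-like, 6 in cells with both marker sets, 6 in lymphatic-like, 9 in aortic-type, 5 in branch-type and 5 in pericyte-like cells.

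The log2 differences of Notch1 over 7 classes ran from −0.20 to 0.29, those of Notch2 over 8 classes from −0.35 to 0.23, those of Notch3 over 5 classes from −0.42 to 0.18 and those of Notch4 over 5 classes from −0.45 to 0.40. The ligand Jag1 ran from −0.42 to 0.34 over 9 classes. In arterial-like cells its level was 66.1 to 106 CPM under the high-fat diet and 89.3 to 124 CPM under control diet, a log2 difference of −0.42 (SE 0.25, adjusted p = 0.793, edgeR). Dll4 in cells with both marker sets was 95.7 to 128 CPM under the high-fat diet and 62.0 to 90.9 CPM under control diet, without overlap, with a log2 difference of 0.58 (SE 0.30, adjusted p = 0.548, edgeR). In that class the diets did not overlap for 17% of all genes tested. Jag2 was tested in capillary-like cells only, at 0.09.

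Of the targets, 0 passed in any class by edgeR. Hey1 in lymphatic-like cells had 18.2, 7.60 and 16.3 CPM under the high-fat diet and 21.8, 36.9 and 46.6 CPM under control diet, from 86 UMIs. The diets did not overlap, as for 16.3% of genes tested in that class, and the log2 difference was −1.43 (SE 0.41, unadjusted p = 0.0024, adjusted p = 0.161, edgeR). Without control 1 it was −1.69 with an adjusted p of 0.0246 by edgeR. Hes1 in cells with both marker sets had 109, 127 and 170.4 CPM under the high-fat diet and 182, 382 and 293 CPM under control diet, from 264 UMIs. These groups did not overlap either, and the log2 difference was −1.10 (SE 0.30, unadjusted p = 0.0027, adjusted p = 0.292, edgeR). Without control 1 it was −1.36 with an adjusted p of 0.00496 by edgeR. The 7 pericyte markers in that class summed to 166 to 454 CPM under the high-fat diet and 218 to 496 CPM under control diet.

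Hes1 was below 0 in 8 of its 9 classes, which share samples and so are not independent. In capillary-like cells it had 169, 217 and 239.6 CPM under the high-fat diet and 224, 268 and 305 CPM under control diet, with overlap and a log2 difference of −0.40 (SE 0.18, adjusted p = 0.386, edgeR). In pericyte-like cells the difference was −0.46 (SE 0.21, adjusted p = 0.531, edgeR). Heyl in aortic-type cells had 95.3 to 137 CPM under the high-fat diet and 124 to 178 CPM under control diet, a log2 difference of −0.39 (SE 0.19, adjusted p = 0.561, edgeR).

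The median log2 difference of the tested members was −0.35 in arterial-like, 0.19 in capillary-like, −0.24 in lymphatic-like, −0.12 in aortic-type, −0.05 in branch-type and −0.15 in pericyte-like cells, and that of all genes tested lay between −0.02 and 0.00 in these classes. Tests of whether the diet difference itself differed between classes called 0 members, with adjusted p-values of at least 0.919 by edgeR. The tests called 0% of 7650 genes between arterial-like and capillary-like cells, with 405 at an unadjusted p under 0.05, and 0.0159% of 12540 between branch-type and aortic-type cells. Between blood endothelial and mural cells they called 0% of 13204, with 518 at an unadjusted p under 0.05.

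Of the other pathway genes, 1 passed between the diets in any vessel class. Nrarp in branch-type cells had 74.7, 57.5 and 75.8 CPM under the high-fat diet and 152, 175 and 155 CPM under control diet, with no overlap. It fell, with a log2 difference of −1.22 (SE 0.26, adjusted p = 0.0226, edgeR), as 1 of 14 list genes tested in a class where 0.488% of genes passed and the diets did not overlap for 13.5%. The call was lost in 5 of the 6 fits that left out 1 sample and with DESeq2, and at a limit of 10% mitochondrial UMIs the difference was −0.90 with an adjusted p of 0.442 by edgeR. In pericyte-like cells Nrarp had 56.1, 14.99 and 61.0 CPM under the high-fat diet and 29.8, 83.4 and 75.8 CPM under control diet, with overlap.

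Heat shock genes moved with diet in every vessel class. The sum of 10 of them was 5890 to 7456 CPM under the high-fat diet and 2466 to 3357 CPM under control diet in aortic-type cells. In branch-type cells it was 4610 to 5764 CPM under the high-fat diet and 2162 to 2674 CPM under control diet, and in lymphatic-like cells 4876 to 6145 CPM under the high-fat diet and 2122 to 3207 CPM under control diet. Their part in the diet values above was not tested. Control 1 also stood apart from the other samples in the number of calls. Without it 225 genes passed in capillary-like cells in place of 24, and 166 in lymphatic-like cells in place of 20.

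**Figure D5:**
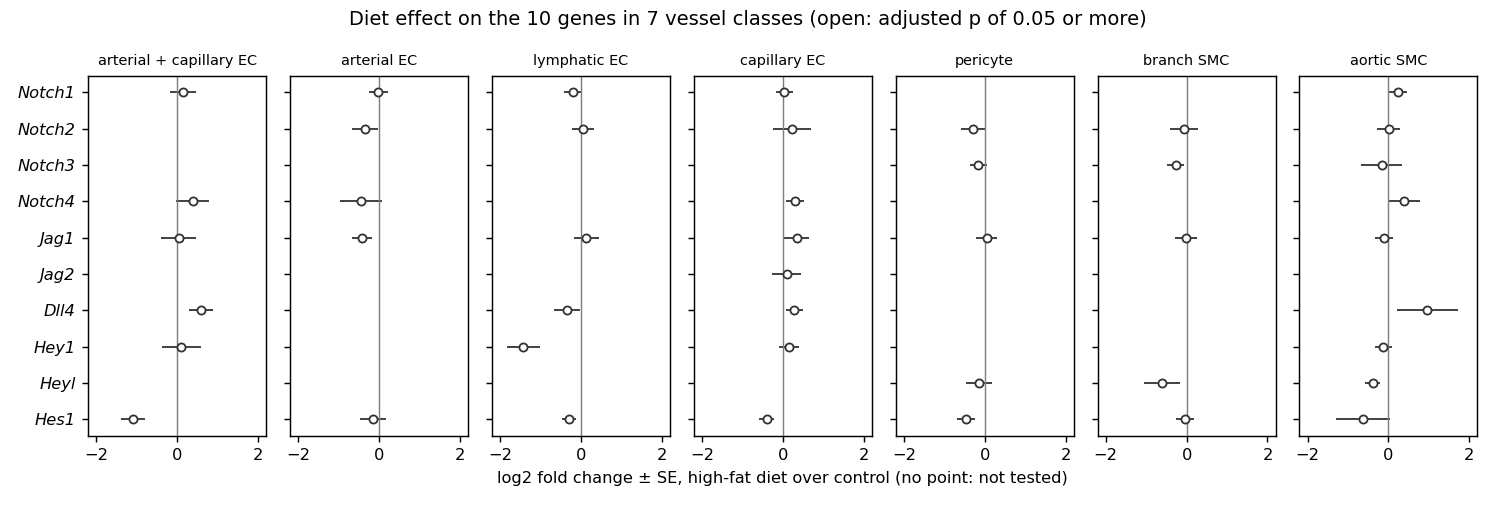
Log2 difference of each tested member, high-fat diet over control, in 7 vessel classes, with bars of 1 SE from the edgeR fit and no point where a gene was not tested. The 44 values lie between −1.43 and 0.97, and 0 of them passed at an adjusted p under 0.05.

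Likeness across cell classes was read from Pearson correlations of mean log2(CPM + 10) over 14 classes and 9655 genes, as a description. The classes share their libraries, so these values carry no test. Dll4 was most like Grrp1 (r = 1.00), Ushbp1 and Robo4, an endothelial guidance receptor, and Notch4 was most like Exoc3l2 (r = 0.99), Tmem252 and Palmd. Notch3 was most like Ppp1r1a (r = 0.99), Slc2a4 and Rgs6, and Heyl most like Trabd2b (r = 0.98), Dzip1l and Trnp1. Notch1 was most like Slc9a3r2 (r = 0.94), Rgs3 and the receptor protease Adam10. Jag1 was most like Adcy6 (r = 0.94), Jag2 most like Nxpe4 (r = 0.99), Hey1 most like Akap2 (r = 0.93), Hes1 most like Btbd3 (r = 0.95) and Notch2 most like Scpep1 (r = 0.89). Among the members themselves the highest values were those of Notch4 with Jag2 (r = 0.94), Dll4 with Jag2 (r = 0.92), and Notch4 with Dll4, Dll4 with Hey1 and Notch3 with Heyl (r = 0.87 each).

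In mm10 coordinates of the annotation used here, Notch1 lies on chr2:26457903-26516663, Jag1 on chr2:137081456-137116644 and Dll4 on chr2:119325784-119335962, so that 3 of the 10 members share a chromosome without being neighbours. Notch3 on chr17:32120820-32166852 and Notch4 on chr17:34564268-34588503 share another. Notch2 lies on chr3:98013527-98150361 and Hey1 on chr3:8663359-8667256. Heyl lies on chr4:123233556-123249875, Jag2 on chr12:112907819-112929776 and Hes1 on chr16:30064384-30067796. The RefSeq starts used for the promoter pieces are not always the outer ends of these spans. The Notch1 piece, chr2:26503823-26504072, and the Jag2 piece, chr12:112929496-112929745, lie inside the span of their gene. Those of Jag1, Notch2 and Notch4 overlap it in part.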

How the data were processed

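The authors deposited UMI counts per gene and cell for 6 samples, each of 2 wells, made with Cell Ranger 3.0 on mm10, per the submitters' processing notes; further counting settings are not given in the sources used here. The counts were used as deposited and were whole numbers. Cells with at least 300 genes and under 20% mitochondrial UMIs were kept (59413), and 1379 (2.32%) with a Scrublet score above 0.25 in their well were left out as doublets. Cells were then gated by marker genes: at least 4 endothelial markers, with at least 3 arterial, capillary or lymphatic markers for a subtype, at least 4 markers for pericyte-like cells, and at least 5 smooth muscle markers with at least 2 of a subtype. Pericyte-like cells were set aside before smooth muscle cells and could carry some, but not all, of the branch-type markers. Clustering had been planned, but clusters followed single wells and it was replaced. Classes with under 20 cells in a sample were not tested. Sums of counts per sample and class were tested with edgeR 4.0.16 (quasi-likelihood, TMM, filterByExpr, Benjamini-Hochberg over all genes tested) in R 4.3.3, classes with the sample as a block and diets without one, and DESeq2 1.42.0 was an alternative. The SE of a log2 difference was its size divided by the square root of edgeR's F statistic. The fits were also run on simulated counts with a fixed dispersion and no sample effect shared between classes. That run does not cover sparse genes or samples that stand apart. The members, gene lists and markers were chosen with earlier results of these data known. All 10 members are described, and of other pathway genes up to 3 called genes with the smallest adjusted p per comparison are named, with others named after their values were seen. A count of 0 was read as allowing up to 3 counts, and such limits cover counting error only.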

Additional observations from a re-analysis of the deposited data

Results flagged for a closer look

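Across 59 sets of 6 samples (1 member in 1 vessel class, mean of at least 10 CPM), 6 held a sample whose gap to its nearest neighbour exceeded Dixon's 95% critical value as a share of the whole range. Chance flags about 1 in 20 such sets. Notch4 in capillary-like cells was 103 CPM in high-fat diet 1, where the nearest sample had 67.1 CPM. Notch1 in pericyte-like cells was 46.9 CPM in control 1, where the nearest sample had 31.3 CPM. Notch2 in pericyte-like cells was 76.7 CPM in control 1, against 50.2 CPM in the nearest sample. Heyl in arterial-like cells was 40.1 CPM in control 1, against 14.7 CPM in the nearest sample. Heyl in branch-type cells was 230.4 CPM in control 2, against 121 CPM in the nearest sample. Hes1 in aortic-type cells was 162 CPM in control 3, against 65.7 CPM in the nearest sample. Of the 6, 3 lay in control 1, and the cause was not tested.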

How the results depend on the processing

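Of 566 alternative values for the 39 class differences of members that passed, 549 passed with the same sign, 17 no longer passed and 0 changed sign. Of 228 for the 17 that did not pass, 12 passed and 21 changed sign. Among the sign changes, Hes1 in lymphatic-like against capillary-like cells was 0.0035 with doublets kept, 0.0186 with a limit of 10% mitochondrial UMIs, 0.0091 with a minimum of 1000 genes and 0.0224 without cells holding a Kcnj8, Higd1b or Vtn UMI. Hey1 in branch-type against aortic-type cells was −0.17 at the 10% limit and −0.59 with a stricter gate, and Notch3 in pericyte-like against branch-type cells was 0.12 at that limit. Leaving out 1 sample gave −0.10 to 0.0420 for Hes1 in lymphatic-like against capillary-like cells, −0.28 to 0.31 for Hey1 and −0.23 to 0.0228 for Notch2 in branch-type against aortic-type cells, −0.12 to 0.0475 for Notch3 and −0.15 to 0.24 for Heyl in pericyte-like against branch-type cells, −0.31 to 0.0086 for Jag1 in blood endothelial against mural cells, −0.14 to 0.22 for Dll4 in cells with both marker sets against capillary-like cells and −0.18 to 0.0453 for Notch1 against arterial-like cells.

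Counts of members called between pericyte-like and branch-type cells were 1 with DESeq2, 0 at the 10% limit, 1 with the stricter gate and 1 to 2 without 1 sample. They were 7 without a filter between cells with both marker sets and arterial-like cells, and 1 to 3 without 1 sample against capillary-like cells. Over all genes, branch-type against aortic-type cells gave 1395 calls with no sample block and 1337 at the 10% limit, pericyte-like against aortic-type cells 1739 in well 1, pericyte-like against branch-type cells 840 with DESeq2, 2059 without a filter and 769 at the 10% limit, and blood endothelial against mural cells 4723 in well 2. Cells with both marker sets against capillary-like cells gave 93 with DESeq2, 29 with no sample block and 123 to 221 without 1 sample.

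For the diets, a member was called without a filter (Hes1 in cells with both marker sets, 1, and Hey1 in lymphatic-like cells, 1) and without control 1 (0 to 1 over the 6 fits in each of these classes). Diet calls over all genes without a filter were 38 in arterial-like, 230 in capillary-like, 49 in cells with both marker sets, 144 in lymphatic-like, 16 in aortic-type, 53 in branch-type, 76 in pericyte-like, 21 in fibroblast-like and 9 in macrophage-like cells. With DESeq2 they were 109 in aortic-type, 11 in branch-type, 15 in pericyte-like, 236 in fibroblast-like and 31 in macrophage-like cells. At the 10% limit they were 2 in arterial-like, 12 in capillary-like, 1 in aortic-type and 0 in fibroblast-like cells, with the stricter gate 0 in arterial-like and 3 in pericyte-like cells, and with a minimum of 1000 genes 0 in fibroblast-like cells. They were 1 in capillary-like, 0 in pericyte-like and 2 in fibroblast-like cells in well 1, and 12, 13 and 12 in capillary-like, aortic-type and macrophage-like cells in well 2. In cells with both marker sets they were 3 with median-of-ratios scaling and 1 with doublets kept. Without 1 sample they ranged over 0 to 20 in arterial-like, 2 to 225 in capillary-like, 0 to 75 in cells with both marker sets, 0 to 166 in lymphatic-like, 0 to 4 in aortic-type, 7 to 57 in branch-type, 1 to 16 in pericyte-like, 0 to 2 in fibroblast-like and 0 to 446 in macrophage-like cells. The tests between diets and classes gave 0 to 6, 2 to 17 and 0 to 10 calls without 1 sample, and 0 between branch-type and aortic-type cells with DESeq2.

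The labels give both diets replicate numbers, but no class had all 3 same-numbered pairs deviating together: over 9 classes the correlations ran from −0.11 to 0.03 for number 1, −0.25 to 0.11 for number 2 and 0.08 to 0.38 for number 3. The numbers were not taken as pairs. Samples with different numbers also shared structure: the correlations of high-fat diet 2 with control 1 ran from 0.15 to 0.45 over the 9 classes. Those of high-fat diet 2 with control 3 ran from −0.47 to −0.13. The diet tests carried no term for this. With the replicate block, diet calls were 0 in arterial-like, 4 in capillary-like, 1 in cells with both marker sets, 10 in pericyte-like and 0 in fibroblast-like cells, and 0 members passed. Notch3 shares at 2000 UMIs were 60.6%, 55.1% and 7.97% in pericyte-like, branch-type and aortic-type cells, and without thinning 79.5%, 76.3% and 20.6%. With log2(CPM + 1), 17 of 30 likeness genes were shared. The causes were not tested.

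Depth set the limits: 137 Vwf-positive cells and members with few UMIs were not tested. With under 20 cells in a sample, 10 comparisons were not run in well 1, 12 in well 2 and 3 each under the 10% limit, the minimum of 1000 genes, the stricter gate and the Kcnj8, Higd1b or Vtn rule, which was added after seeing the data, as was the class with both marker sets.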

Other observations

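The Vwf-positive endothelial cells were too few for a test, and their levels are given as values from 137 cells. They had fewer than 3 arterial markers each, so some arterial markers could be present. Notch1 had 138, 121 and 182 CPM there under the high-fat diet and 32.4, 87.1 and 142 CPM under control diet, from 69 UMIs. Hes1 had 199.8, 315 and 285 CPM under the high-fat diet and 227, 236 and 210.1 CPM under control diet, from 123 UMIs. The ligand Dll1 had 92.2, 97.0 and 102.5 CPM under the high-fat diet and 64.7, 87.1 and 41.1 CPM under control diet, from 37 UMIs, and its mean of 80.8 CPM lay near the 73.2 CPM of arterial-like cells. Hey2 held 5 UMIs and Jag2 held 1 in this class. Outside the vessel wall lineages, Notch2 averaged 59.3 ± 10.1 CPM and Hes1 33.2 ± 7.27 CPM in B cell-like cells (SD, n = 6).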
